A study of Mus musculus with 18 samples.

Results

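The genes described here are 5 parts of the corticosteroid and corticotropin-releasing hormone (CRH) systems of the mouse hippocampus: the glucocorticoid receptor gene Nr3c1, the mineralocorticoid receptor gene Nr3c2, the glucocorticoid-activating enzyme gene Hsd11b1, the CRH receptor gene Crhr1 and the CRH-binding protein gene Crhbp. They were chosen by name, and each matched 1 Ensembl identifier of the 22063 in the count table. The series measured polyadenylated RNA of hippocampus in 18 libraries from mice put through rotation that disturbs orientation, with tissue taken directly afterwards. The 3 Control libraries are labelled as blank controls. Rotation was in a single direction with the eyes covered in S-V (n = 5), in both directions with the eyes uncovered in D+V (n = 5) and in both directions with the eyes covered in D-V (n = 5), which the labels equate with the Coriolis illusion. The labels give no strain, sex or age, no account of how the controls were handled, and no time or dose of rotation. Whether every library came from its own animal is also not stated, and the p-values therefore reflect only how these libraries spread. The libraries held 15.03 to 25.31 M estimated counts each. Of the marker genes of the hippocampal fields, all 8 CA1, all 12 CA2 and CA3 and all 11 dentate granule cell markers were measured well enough to test. Such a test does not need counts in every library. The lowest sum in any library, in CPM (counts scaled to library size), was 685 for CA1, 807 for CA2 and CA3 and 568.5 for dentate granule cells. In 6 libraries, 2 each of S-V, D+V and D-V, markers of choroid plexus epithelium, a tissue next to the hippocampus, were highest. Their scores (log2, centred on the mean of all libraries) were 2.196 to 3.47 in 5 of them, while the sixth, D+V replicate 5, was at 0.74, near Control replicate 2 at 0.41, so the number 6 rests on where the line was drawn. The 15 choroid plexus markers summed to 164 to 1164 CPM in Control and 183 to 4358 CPM in S-V. They summed to 146 to 9547 CPM in D+V and 150 to 11200 CPM in D-V. Markers of thalamus and habenula summed to 130 to 236 CPM in Control and 108.5 to 142 CPM in S-V. They summed to 92.8 to 182 CPM in D+V and 79.0 to 169 CPM in D-V. The part of these neighbouring tissues in the results was not tested beyond the fits named here.

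Adrenal glucocorticoids reach the brain from the blood and bind both receptors, which are transcription factors held in the cytoplasm by chaperones until hormone arrives. The mineralocorticoid receptor binds corticosterone with the higher affinity and is strongly expressed in hippocampal neurons, while the glucocorticoid receptor fills mainly when hormone is high. Hsd11b1 encodes the enzyme that regenerates active corticosterone inside cells from its inert keto form. CRH, the peptide that starts the hormonal stress response in the hypothalamus, is also released in the hippocampus by interneurons and acts there through Crhr1, a G protein-coupled receptor, while the secreted protein of Crhbp binds CRH and limits it.

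Upstream sequence is shown for the receptor gene with the highest level and for the gene of the CRH-binding protein, since these show how unlike the control regions of the set are. RefSeq entries (build GRCm38.p6) were matched for Hsd11b1, Nr3c2, Crhr1 and Crhbp, and none was matched for Nr3c1. Each run below is the 250 bases before the annotated start, 5′ to 3′ on the strand of the gene. Capitals mark GC boxes (GGGCGG) and CCAAT boxes (CCAAT) in Nr3c2, of which 2 GC boxes and 1 CCAAT box lie on the opposite strand and are printed as CCGCCC and ATTGG, and the core of a cAMP response element (TGACG, here on the opposite strand) in Crhbp.
Nr3c2, chr8:76902080-76902329, plus strand: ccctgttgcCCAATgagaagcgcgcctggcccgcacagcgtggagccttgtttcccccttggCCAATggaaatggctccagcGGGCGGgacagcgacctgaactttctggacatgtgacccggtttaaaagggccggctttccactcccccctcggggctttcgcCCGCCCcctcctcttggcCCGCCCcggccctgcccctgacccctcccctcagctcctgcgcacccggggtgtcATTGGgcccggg
Crhbp, chr13:95444832-95445081, minus strand: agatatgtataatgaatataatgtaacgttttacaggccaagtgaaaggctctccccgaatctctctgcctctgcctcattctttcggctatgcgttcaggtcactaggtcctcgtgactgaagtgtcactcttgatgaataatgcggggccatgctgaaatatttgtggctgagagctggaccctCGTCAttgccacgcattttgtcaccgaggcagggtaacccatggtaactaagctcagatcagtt

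The Nr3c2 window had a GC content of 68.4%, with 3 GC boxes and 3 CCAAT boxes, and the Crhbp window had a GC content of 47.2% with neither. The Crhr1 window was the richest in G and C at 74.8%, and the Hsd11b1 window stood at 54.4%. Both strands were searched in 32851 promoter windows of the same length, of which 32.7% held a GC box, 33.8% a CCAAT box and 17.8% the TGACG core. The palindromic glucocorticoid response element (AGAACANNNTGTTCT, in 0.00913% of windows), its single arm AGAACA (16.1%) and the full cAMP response element TGACGTCA (1.55%) were in none of the 4 windows. The arm and the core lie within the full elements and so overlap them. A match is a run of letters and not a measured binding site, and a window without one says nothing about the factor.

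Set against transcript length, the mineralocorticoid receptor gene and the activating enzyme gene had the highest levels of the 5. CPM per kilobase of the longest coding transcript (CPM per kb, a level) averaged 32.5 ± 4.11 for Nr3c2 and 30.3 ± 3.35 for Hsd11b1 (SD, n = 18 libraries). Crhbp followed at 13.1 ± 1.80 and Nr3c1 at 12.9 ± 1.26, and Crhr1 was lowest at 3.44 ± 0.617. Nr3c2 and Hsd11b1 were less than 1 SD apart, as were Crhbp and Nr3c1, so the order falls into 3 steps. The lowest Hsd11b1 library (25.9) lay above the highest Crhbp library (16.0), and the lowest Nr3c1 library (11.0) above the highest Crhr1 library (4.89). Among 14743 tested genes with a length, 85.8% lay below Nr3c2 and 35% below Crhr1. Transcript lengths came from GENCODE M21, and a shorter or longer main transcript in this tissue would shift these levels.

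**Figure D1:**
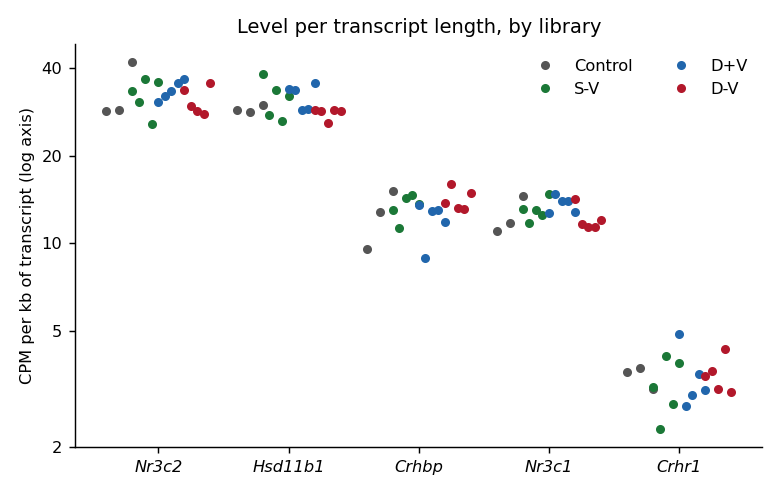
Level of each gene in CPM per kb of its longest coding transcript (vertical log axis) in each of the 18 libraries, coloured by group. Nr3c2 and Hsd11b1 lie highest, Crhbp and Nr3c1 overlap near 13, and Crhr1 lies lowest near 3.4.

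None of the 5 genes differed between any of the groups past an adjusted p of 0.05. This held in 7 comparisons: S-V, D+V, D-V and their mean, each set against Control, and the 3 pairs of rotated groups. Of the 35 fitted differences 0 were called by edgeR, 19 were positive, and the largest was a log2 of 0.24. Over all 14763 genes tested the call rate was 0.942% in D+V against Control and 0% in each of the other 6 comparisons, so a count of 0 among 5 genes cannot be told apart from the background. At an unadjusted p under 0.05 there was 1 of the 35 differences, and DESeq2 and limma voom also called 0 of them. DESeq2 gave no adjusted p for some, such as Crhr1 in S-V and in the rotated mean, each against Control, and could not call these. Over all genes 1973 had an unadjusted p under 0.05 in S-V, 2601 in D+V, 888 in D-V and 1902 in the rotated mean, each against Control. The intervals say how large a difference these libraries leave possible. Every 95% interval against Control lay between a 0.711-fold and a 1.39-fold level, and the narrowest were those of Nr3c1 and Hsd11b1.

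**Figure D2:**
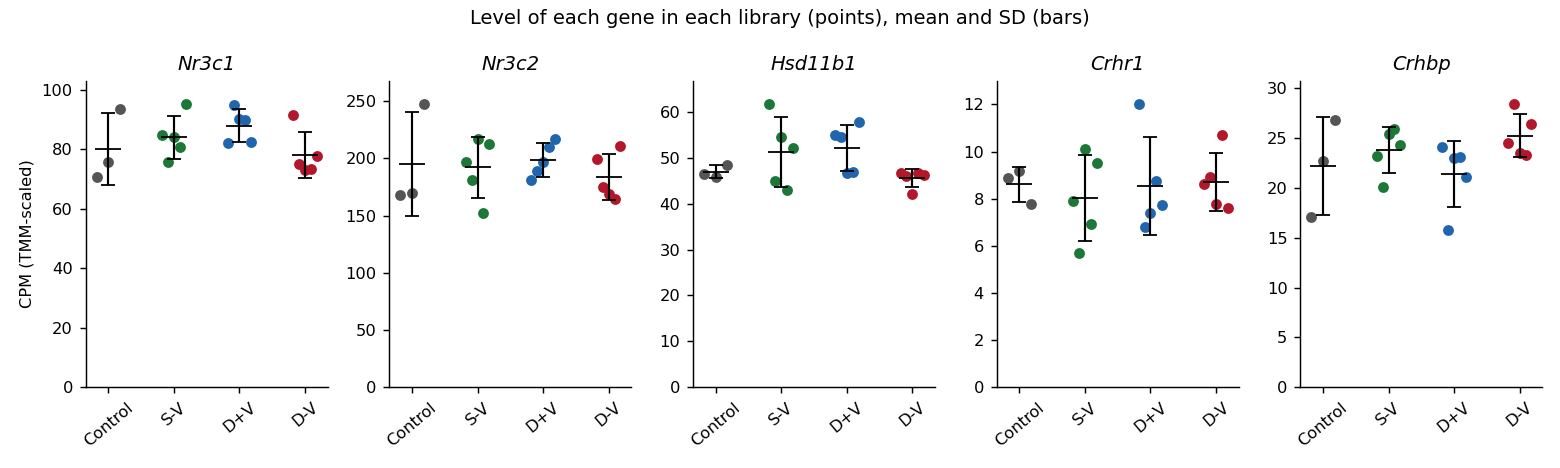
CPM of each gene (vertical axis, from 0) in each library by group, with the group mean and SD. The libraries of the 4 groups overlap for all 5 genes, and Control replicate 3 is the highest library for Nr3c2 at 248 CPM.

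The glucocorticoid receptor gene Nr3c1 (ENSMUSG00000024431) had similar levels in all groups. In Control its CPM, scaled by the trimmed mean of M-values (TMM), was 70.7, 75.8 and 93.5. In S-V the 5 libraries were at 84.6, 75.6, 84.1, 80.6 and 95.3 CPM, in D+V at 82.1, 94.9, 90.2, 89.8 and 82.4 CPM, and in D-V at 91.3, 74.9, 73.0, 73.3 and 77.7 CPM. All rotated libraries lay above the lowest control, and 1 in S-V and 1 in D+V lay above the highest. Group means, from high to low, were 87.9 ± 5.53 CPM in D+V, 84.0 ± 7.25 in S-V, 79.99 ± 11.99 in Control (SD, n = 3) and 78.1 ± 7.65 for D-V (SD, n = 5 per rotated group). The difference against Control was a log2 of 0.07 in S-V (95% interval −0.13 to 0.27, adjusted p 0.788), 0.14 in D+V (−0.06 to 0.33, adjusted p 0.477) and −0.03 in D-V (−0.23 to 0.16, adjusted p 0.977). The D+V value was 0.054 without Control replicate 1, 0.26 without Control replicate 3 (adjusted p by edgeR 0.138) and −0.11 with GC and length trends removed.

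The mineralocorticoid receptor gene Nr3c2 (ENSMUSG00000031618) had its highest and, but for 2 rotated libraries, its lowest levels within Control itself. The controls were at 168, 169.8 and 248 CPM. S-V libraries were at 197, 181, 217, 152 and 213 CPM, D+V libraries at 181, 189, 197, 209.8 and 217 CPM, and D-V libraries at 199, 175, 169, 164 and 211 CPM. No rotated library reached Control replicate 3, and S-V replicate 4 and D-V replicate 4 lay below all controls. The means were 198.7 ± 14.6 CPM in D+V, 195 ± 45.5 in Control (SD, n = 3), 192 ± 26.5 in S-V and 183 ± 20.2 for D-V (SD, n = 5 per rotated group), all closer together than the SD of Control. The log2 differences against Control were −0.02 in S-V (95% interval −0.29 to 0.24), 0.02 in D+V (−0.24 to 0.29) and −0.09 in D-V (−0.35 to 0.18), with adjusted p of 0.958, 0.944 and 0.939.

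The balance of the 2 receptor genes, a common description of the sensitivity of a tissue to stress hormone, was near 2.5 in every group. The ratio of Nr3c2 to Nr3c1, each in CPM per kb, was 2.56 ± 0.226 in D-V, 2.47 ± 0.257 in D+V and 2.49 ± 0.28 in S-V, with 5 libraries each, against 2.64 ± 0.226 in the 3 controls (± SD). The lowest ratios were in S-V replicate 4 (2.05) and D+V replicate 2 (2.17), and the highest in D-V replicate 5 (2.95) and Control replicate 3 (2.88). The group means lay closer together than the SD of any group. No test was made of this ratio.

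Nr3c1 and Nr3c2 varied together from library to library. Across the 18 libraries Pearson's r of their log2 CPM was 0.669 (permutation p 0.00244, adjusted p 0.0244 over the 10 pairs of the 5 genes) and Spearman's rho was 0.695 (permutation p 0.00192, adjusted p 0.0192), both two-sided. Pearson's r was 0.665 with the group means removed, 0.621 without the 2 libraries farthest from the median of Nr3c1 and 0.62 without Control replicate 3. After removal of GC content and length trends within libraries it was 0.502. Nr3c2 with Hsd11b1 was then the highest of the 10 pairs, at 0.574. Nr3c1 with Crhr1 went from −0.0745 to 0.395, and Nr3c1 with Hsd11b1 from 0.418 to 0.152. No p was computed for r with the trends removed. These libraries differ in such trends, and the part of the trends in these relations was not tested further. Without that removal, each of the 9 pairs other than Nr3c1 with Nr3c2 missed an adjusted p of 0.05. The next were Nr3c2 with Hsd11b1 (r 0.465, rho 0.569, permutation p 0.0507 and 0.0151, adjusted p 0.254 and 0.0504) and Nr3c1 with Hsd11b1 (r 0.418, rho 0.579, permutation p 0.084 and 0.0132, adjusted p 0.28 and 0.0504). Crhr1 and Crhbp, receptor and binding protein of the same peptide, had an r of 0.285 and a rho of 0.236 (permutation p 0.25 and 0.341, adjusted p 0.625 and 0.664).

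**Figure D3:**
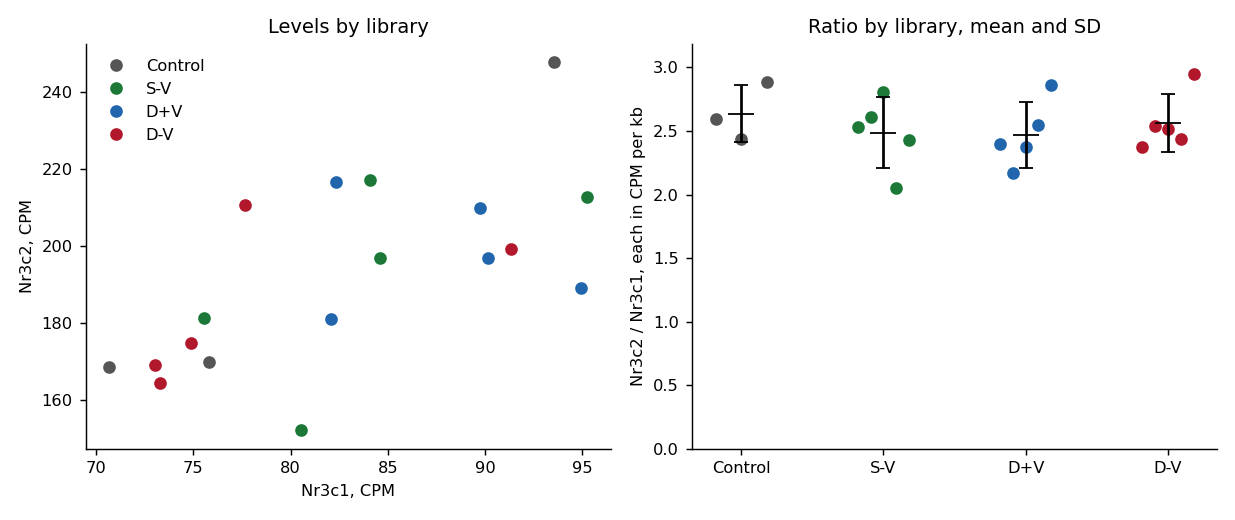
Left, Nr3c2 against Nr3c1 in CPM, a point for each of the 18 libraries (r of log2 CPM 0.669). Right, the ratio of the 2 genes in CPM per kb by group with mean and SD, from 0, with all libraries between 2.05 and 2.95.

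Hsd11b1 (ENSMUSG00000016194) was nearly constant in Control and in D-V and spread more widely in the other 2 groups. Control libraries were at 46.6, 45.9 and 48.5 CPM and D-V libraries at 46.6, 46.1, 42.0, 46.7 and 46.2 CPM. S-V libraries were at 61.8, 45.0, 54.6, 42.9 and 52.1 CPM, and D+V libraries at 54.9, 54.5, 46.6, 46.8 and 57.8 CPM. In S-V 3 libraries lay above all controls and 2 below, in D+V 3 lay above and none below, and in D-V none lay above and 1 below. Means were 52.2 ± 5.11 CPM in D+V, 51.3 ± 7.63 in S-V, 47.0 ± 1.37 in Control (SD, n = 3) and 45.5 ± 1.98 for D-V (SD, n = 5 per rotated group). Against Control the log2 difference was 0.13 in S-V (95% interval −0.08 to 0.33, adjusted p 0.608), 0.15 in D+V (−0.06 to 0.36, adjusted p 0.454) and −0.05 in D-V (−0.25 to 0.16, adjusted p 0.969). The annotation places Lamb3, a laminin gene, and an antisense transcript on the strand opposite to Hsd11b1, and strand use in counting is not given in the sources used here. Lamb3 itself was at 1.03 to 2.57 CPM.

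The partners of this enzyme were measured at lower levels or hardly at all. H6pd, which supplies its cofactor in the endoplasmic reticulum, was at 7.49 ± 1.06 CPM in D-V, 8.03 ± 1.502 in D+V and 7.81 ± 0.85 in S-V, with 5 libraries each, against 9.73 ± 1.86 CPM in the 3 controls (± SD). Its log2 difference for the rotated mean against Control was −0.32 (SE 0.14, 95% interval −0.61 to −0.04), at an adjusted p of 0.328 by edgeR. Hsd11b2, the enzyme that inactivates corticosterone and protects the mineralocorticoid receptor in kidney, had 10 counts in all 18 libraries together and was not tested. Cyp11b1, the last enzyme of corticosterone synthesis in the adrenal gland, had 0 counts in every library.

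In the CRH system the ligand gene had few counts, and neither it nor the receptors nor the binding protein differed between groups past the threshold. Crh had 13 to 39 counts per library. Its mean was 1.59 ± 0.24 CPM in D-V, 1.41 ± 0.371 in D+V and 1.34 ± 0.506 in S-V, with 5 libraries each, against 1.11 ± 0.29 CPM in the 3 controls (± SD). The log2 difference of the rotated mean against Control was 0.38 (SE 0.28, 95% interval −0.21 to 0.96, adjusted p 0.589), and in D-V against Control it was 0.52 (SE 0.32, 95% interval −0.15 to 1.19, adjusted p 0.854). The related peptides were near the limit of detection. Ucn had 9 counts in all, Ucn2 had 2, and of the 36 counts of Ucn3 Control replicate 2 held 34.

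Crhr1 (ENSMUSG00000018634) had 100 to 244 counts per library and the widest relative spread of the 5 genes. Control libraries were at 8.89, 9.16 and 7.77 CPM, S-V libraries at 7.92, 5.68, 10.1, 6.92 and 9.53 CPM, D+V libraries at 12.03, 6.81, 7.40, 8.75 and 7.72 CPM, and D-V libraries at 8.63, 8.93, 7.78, 10.7 and 7.59 CPM. Each rotated group had libraries both above and below all 3 controls. Means were 8.72 ± 1.23 CPM in D-V, 8.61 ± 0.736 in Control (SD, n = 3), 8.54 ± 2.07 in D+V and 8.03 ± 1.83 in S-V (SD, n = 5 per rotated group). Log2 differences against Control were −0.10 in S-V (95% interval −0.49 to 0.29), −0.01 in D+V (−0.40 to 0.38) and 0.02 in D-V (−0.37 to 0.41), with adjusted p from 0.862 to 0.996. The SD within groups was 0.27 on the log2 scale, wider than in 73.0% of all tested genes, against 0.13 for Nr3c1, which was wider than in 32.1%.

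Crhr2, the second CRH receptor and not one of the 5, had no called difference either and ranged from 0.591 to 8.43 CPM. In the 6 libraries with the highest choroid plexus score its median was 4.11 CPM, and in the other 12 it was 1.35 CPM, although the highest of these 12, Control replicate 1, reached 5.15. The same division gave medians of 7.32 and 8.82 CPM for Crhr1, 22.2 and 24.2 for Crhbp, 78.1 and 84.3 for Nr3c1, 175 and 198 for Nr3c2 and 45.8 and 46.7 for Hsd11b1, with overlapping ranges for each. Without these 6 libraries 0 of the 5 genes were called in any comparison. Over all genes that fit called 1 in S-V against Control and 0 in each of the other comparisons, so the count carries little information. Hsd11b1 in S-V against Control was then at a log2 difference of 0.26 (adjusted p by edgeR 0.337), against 0.13 with all libraries.

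Crhbp (ENSMUSG00000021680) was highest on average in D-V. Control libraries were at 17.1, 22.8 and 26.8 CPM and D-V libraries at 24.5, 28.5, 23.5, 23.3 and 26.4 CPM. S-V libraries were at 23.2, 20.2, 25.4, 26.0 and 24.3 CPM and D+V libraries at 24.1, 15.8, 23.0, 23.1 and 21.1 CPM. The lowest D-V library lay above 2 of the 3 controls, and 1 D-V library lay above all of them, while 1 D+V library lay below all controls. Means were 25.3 ± 2.19 CPM in D-V, 23.8 ± 2.31 in S-V, 22.2 ± 4.89 in Control (SD, n = 3) and 21.4 ± 3.33 for D+V (SD, n = 5 per rotated group). Log2 differences against Control were 0.10 in S-V (95% interval −0.19 to 0.39, adjusted p 0.796), −0.05 in D+V (−0.34 to 0.23, adjusted p 0.883) and 0.19 in D-V (−0.10 to 0.47, adjusted p 0.878). The D-V value was 0.028 without Control replicate 1 and 0.34 without Control replicate 3. Crhbp is made by interneurons, whose 15 markers summed to 1305 to 1419 CPM in Control and 1396 to 1513 CPM in D-V. They summed to 1271 to 1424 CPM in S-V and 1152 to 1493 CPM in D+V. Across the 18 libraries Crhbp and the interneuron marker score had an r of 0.343 (permutation p 0.166, adjusted p 0.541). Without the 2 libraries farthest from the median of that score r was 0.0843. In bulk tissue, a change in the number of cells of a type and a change in RNA per cell cannot be told apart.

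Libraries of rotated mice and controls overlapped for each of the 5 genes in every comparison. Non-overlap was itself uncommon: 12.4% of all tested genes showed it in S-V against Control, 7.63% in D+V against Control, 5.12% in D-V against Control and 1.05% for all rotated libraries against Control. The rates were 2.05% in D-V against S-V, 1.58% in D-V against D+V and 1.21% in D+V against S-V, again with 0 of the 5 genes. For the rotated mean against Control, the log2 differences were 0.06 for Nr3c1 (95% interval −0.11 to 0.23), −0.03 for Nr3c2 (−0.26 to 0.20), 0.08 for Hsd11b1 (−0.10 to 0.26), −0.03 for Crhr1 (−0.37 to 0.31) and 0.08 for Crhbp (−0.17 to 0.33). Adjusted p ran from 0.728 to 0.955. The 3 comparisons with single groups share their control libraries.

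Among the rotated groups, the comparison of D-V with D+V, groups that differ by sight during rotation in both directions, held the smallest p-values of the set. Hsd11b1 was 45.5 CPM in D-V and 52.2 in D+V, a log2 difference of −0.20 (95% interval −0.38 to −0.015). Its unadjusted p was 0.0351, the 1 value of 35 under 0.05, and its adjusted p by edgeR was 0.326. All 5 D-V libraries lay below 3 of the D+V libraries, and 3 of them below every D+V library. Nr3c1 was at −0.17 (−0.34 to 0.0005, adjusted p 0.371), with 4 of 5 D-V libraries below every D+V library. Crhbp was at 0.24 (−0.0081 to 0.49, adjusted p 0.387), with 3 of 5 D-V libraries above every D+V library. Nr3c2 was at −0.11 (−0.34 to 0.12, adjusted p 0.708) and Crhr1 at 0.03 (−0.31 to 0.37, adjusted p 0.962). In this comparison 2003 of the 14763 genes had an unadjusted p under 0.05. With GC and length trends removed the Nr3c1 value was 0.0091. Without the 6 choroid-rich libraries Hsd11b1 was at −0.096, Nr3c1 at −0.10, Nr3c2 at −0.011, Crhr1 at −0.17 and Crhbp at 0.18. Astrocyte markers, of which 0 of 12 were called, had summed levels of 4299 to 5175 and 4806 to 6326 CPM in these groups, 1 of 12 markers positive and a median log2 difference of −0.18. Endothelium and pericyte markers, of which 0 of 14 were called, had 13 positive, a median of 0.22 and summed levels of 456 to 516 CPM in D-V and 372 to 480 CPM in D+V. The part of both in these values was not tested.

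D-V against S-V, which sets rotation in both directions against a single direction with the eyes covered, gave a log2 difference of −0.17 for Hsd11b1 (95% interval −0.35 to 0.0078, adjusted p 0.795), −0.11 for Nr3c1 (−0.28 to 0.07, adjusted p 0.857) and −0.07 for Nr3c2 (−0.30 to 0.16, adjusted p 0.958). Crhr1 was at 0.12 (−0.22 to 0.46) and Crhbp at 0.09 (−0.16 to 0.33), each at an adjusted p of 0.948. Over all genes 929 had an unadjusted p under 0.05. D+V and S-V differ in both direction and sight, and 1892 genes had an unadjusted p under 0.05. There the log2 difference was −0.15 for Crhbp (−0.40 to 0.10, adjusted p 0.609) and between 0.02 and 0.09 for the other 4 genes, with adjusted p from 0.777 to 0.939.

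**Figure D4:**
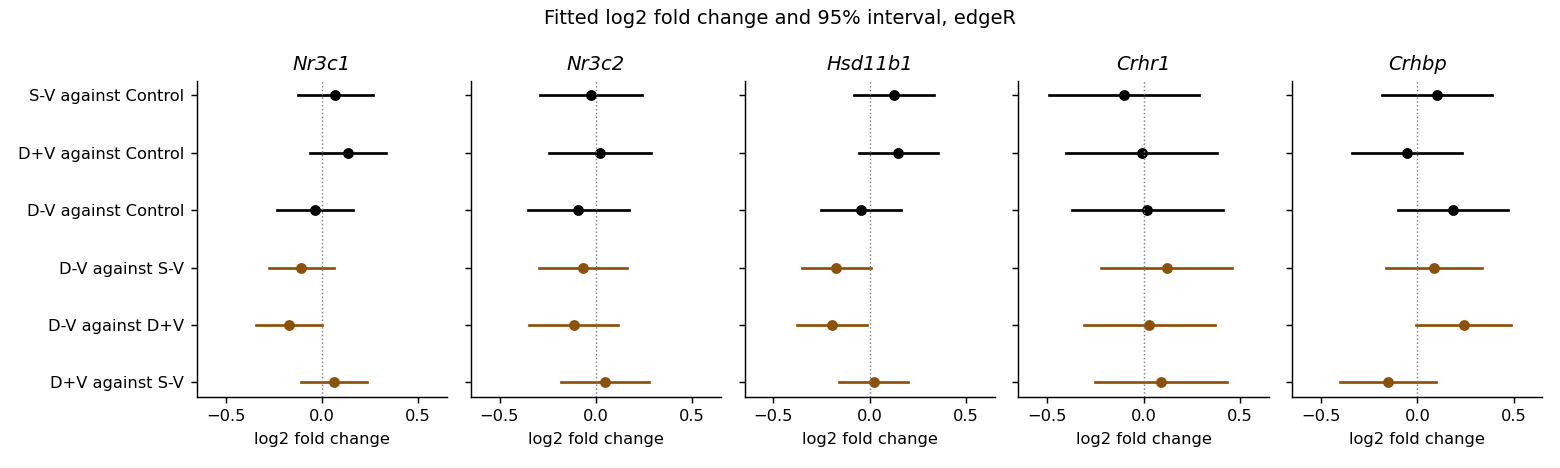
Fitted log2 fold change (horizontal axis) with its 95% interval for each gene, in black against Control and in brown between rotated groups. The interval of Hsd11b1 in D-V against D+V, −0.38 to −0.015, does not reach 0, and its adjusted p was 0.326.

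The genes around the receptors were taken from 7 lists, some of which hold the 5 genes themselves. In the 7 comparisons 0 genes of any list were called, against the call rates given above. Steroid metabolism and transport had 12 of 16 genes tested, and for the rotated mean against Control its median log2 difference was 0.07 with 7 positive, against a median of 0.002 over all genes. Akr1c14, a reductase of steroid hormones, was at 0.54 (SE 0.26, adjusted p 0.396). The chaperone complex that holds the receptors had 9 of 15 genes positive and a median of 0.04. Hspa4, an HSP70 relative, was at 0.19 (SE 0.06, adjusted p 0.181), and Hsp90aa1, which folds the hormone-binding part of the receptors, at 0.20 (SE 0.09, adjusted p 0.341). Fkbp5, the co-chaperone that lowers the hormone affinity of the glucocorticoid receptor and is itself induced by it, was at 65.5 ± 3.64 CPM in D-V, 65.3 ± 9.80 in D+V and 68.0 ± 4.70 in S-V, with 5 libraries each, against 59.6 ± 9.47 CPM in the 3 controls (± SD), with a log2 difference of 0.15 (SE 0.09, adjusted p 0.507).

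Cofactors that receptors recruit to chromatin had 13 of 18 genes positive and a median of 0.08. Carm1, an arginine methyltransferase, was at −0.16 (SE 0.06, adjusted p 0.26). Of the 10 steroid and related receptors 9 were tested and 7 were positive, with a median of 0.10. Gper1, a membrane estrogen receptor, was at −0.42 (SE 0.18, adjusted p 0.341). Signal transduction behind Crhr1 had 14 of 23 genes positive and a median of 0.06. Creb1, the transcription factor that protein kinase A phosphorylates, was at 0.25 (SE 0.09, adjusted p 0.251), and Rapgef4, a cAMP sensor, at 0.24 (SE 0.10, adjusted p 0.299). The CRH family had 4 of 7 genes tested, 2 of them positive.

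Among genes known to respond to glucocorticoids, none was called. In S-V against Control 24 of 30 were positive with a median log2 difference of 0.21, where the median of all genes was 0.002. The list was chosen with earlier results of these data known. The medians were −0.03 in D+V (12 positive) and −0.05 in D-V (10 positive). Sgk1, a kinase induced by both receptors, was at 73.3 ± 10.8 CPM in D-V, 72.7 ± 13.9 in D+V and 107.8 ± 22.6 in S-V, with 5 libraries each, against 79.8 ± 14.9 CPM in the 3 controls (± SD). Its log2 difference in S-V against Control was 0.44 (SE 0.18, adjusted p 0.307). Sgk1 was named after its value was seen, and not every gene of the list was higher in S-V. Mean CPM in S-V and in Control was 24.0 and 24.8 for Cebpd and 3.46 and 3.87 for Map3k6. For Per1 the means were nearly equal, at 58.8 in S-V and 58.5 in Control. For the rotated mean the smallest p-values of this list were those of Mertk, a phagocytic receptor kinase, at 0.27 (SE 0.12, adjusted p 0.35), and Klf9, a transcription factor, at 0.20 (SE 0.09, adjusted p 0.368).

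**Figure D5:**
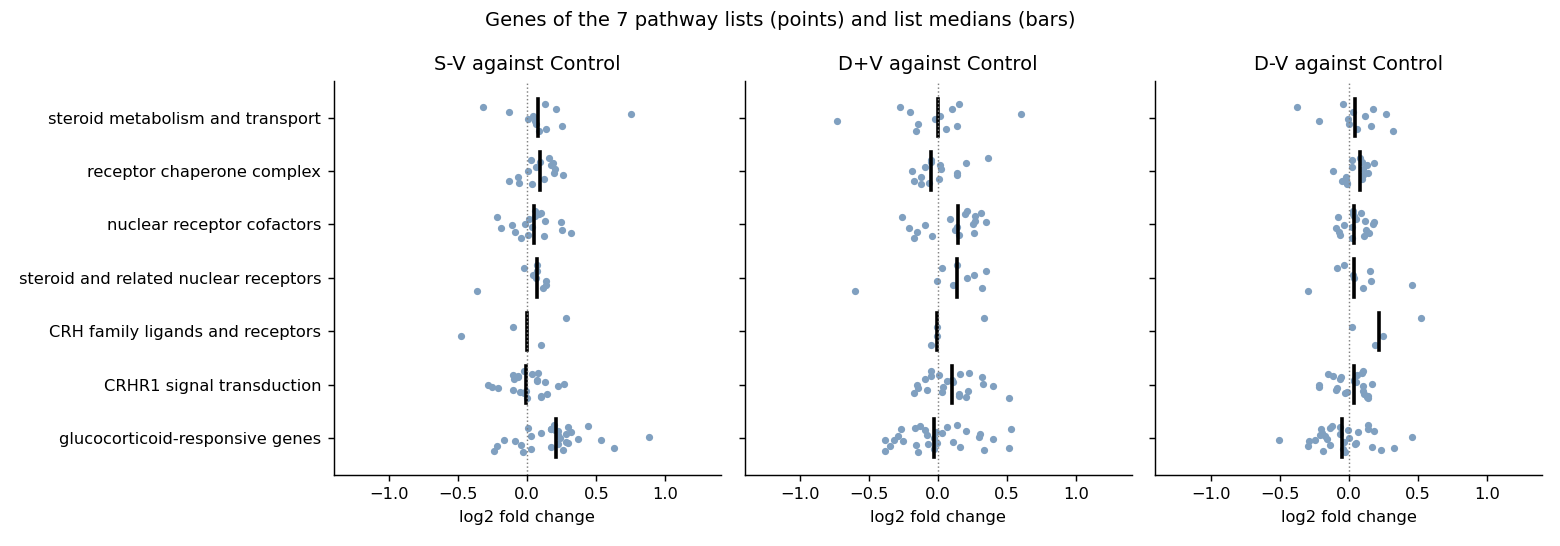
Log2 fold change (horizontal axis) of every tested gene in the 7 lists, in each rotated group against Control, with a bar at each list's median. The glucocorticoid-responsive genes have a median of 0.21 in S-V and lie around 0 in D+V and D-V.

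The genes whose levels ran most like each of the 5 were found among 12429 genes by Pearson's r of log2 CPM over the 18 libraries, given as a description. For Nr3c1 they were Ndst4, a heparan sulfate sulfotransferase (r 0.888), Skil, a repressor of SMAD signalling (0.865), and Epha5, an ephrin receptor (0.847), with Pafah1b3 most opposed (−0.874). For Nr3c2 they were Zcchc14 (0.907), Rasgrp1, an activator of Ras (0.905), and the ephrin receptor Epha4 (0.895), with Prr13 most opposed (−0.855). Hsd11b1 ran most like Aspa, the aspartoacylase of oligodendrocytes (0.752), Zbed5 (0.737) and Mipol1 (0.727), and most against Pnpla6 (−0.828). Crhr1 ran with Ssr2, a translocon subunit (0.858), Gsdme, a gasdermin (0.853), and the peptidase Thop1 (0.84), and against Gldc, the glycine decarboxylase of astrocytes (−0.806). Crhbp ran with Tada2a (0.80) and Dyrk3 (0.78), and against Amotl1 (−0.784). With GC and length trends removed these values were smaller in size for all but Mipol1 (0.745), such as 0.673 for Ndst4 with Nr3c1 and 0.676 for Zcchc14 with Nr3c2, and 0.861 for Rasgrp1 and 0.869 for Epha4 with Nr3c2.

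Levels of the 5 genes were also set beside the scores of 13 marker lists of cell types and neighbouring regions, 65 relations in all, over 18 libraries. The choroid plexus score was left out of these, since some libraries stood far apart from the rest in it. By Pearson's r none passed an adjusted p of 0.05, and by Spearman's rho 2 did. Nr3c2 was lower where markers of striatum were higher (rho −0.742, permutation p 0.00069, adjusted p 0.0224, r −0.686, permutation p 0.00165, adjusted p 0.107). Without the 2 libraries farthest from the median of the striatum score r was −0.676, and within groups it was −0.695. The 11 striatum markers summed to 199 to 259 CPM in Control and 172 to 290 CPM over the rotated groups. Crhr1 was lower where astrocyte markers were higher (rho −0.769, permutation p 0.00025, adjusted p 0.0162, r −0.55, permutation p 0.0185, adjusted p 0.219), with an r of −0.583 without the 2 farthest libraries and −0.684 within groups. Nr3c1 was also lower where the striatum score was higher (r −0.63, permutation p 0.00454, adjusted p 0.138, rho −0.668, permutation p 0.00315, adjusted p 0.0682), with an r of −0.448 without the 2 farthest libraries and −0.60 within groups. Both receptor genes thus ran against the same score, and its part in their relation to each other was not tested. Nr3c2 and the meningeal fibroblast score had an r of −0.623 (permutation p 0.00658, adjusted p 0.138) and a rho of −0.587 (permutation p 0.0116, adjusted p 0.162). Nr3c2 and the dentate granule cell score had an r of 0.601 (permutation p 0.00852, adjusted p 0.138) and a rho of 0.581 (permutation p 0.0136, adjusted p 0.162).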

How the data were processed

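The authors deposited estimated counts per gene, not scaled to depth, with 1 column per library, per the file headers; 7.35% of values were not whole numbers. Bowtie2 2.2.8, HISAT2, StringTie 1.3.1 and DESeq2 are named, without roles, per the submitters' processing notes. Build, annotation and strand use were not given in the sources used here. Symbols matched 21973 of 22063 identifiers. Counts were rounded and filtered with filterByExpr of edgeR, which left 14763 genes with 99.97% of counts, and scaled by TMM. Differences were tested across all genes with the robust quasi-likelihood F test of edgeR 4.0.16 (R 4.3.3), all 18 libraries in 1 fit of 4 group means, at a Benjamini-Hochberg adjusted p of 0.05. Intervals are 95%. DESeq2 1.42.0 and limma 3.58.1 (voom) served as alternatives. Correlations used log2 CPM computed here with a prior count of 2, with 100000 permutations, two-sided, adjusted within each family. PCR copies were not marked, so precision from counts covers counting error only. Named genes were the 5 members, Crh, Ucn, Crhr2, Hsd11b2, H6pd and Fkbp5, and the 2 smallest p per pathway list. The 3 most alike and 1 most opposed gene per member were named too. Outside this rule, Sgk1, Per1, Cebpd, Map3k6, Ucn2, Ucn3, Cyp11b1 and Lamb3 were added after their values were seen. Some genes that this rule names are not reported here. The 5 genes and all lists were chosen with earlier results of these data known. The promoter motifs were chosen after the values of these genes were seen. The fit was checked on simulated counts. Chi-square values per gene of 5.39 to 55.0 between the 33 pairs of same-group libraries exceeded sampling noise. They were larger than repeat sequencing of 1 library would give, and each library was counted as 1 replicate. These values cannot show that each library came from its own animal.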

Additional observations from a re-analysis of the deposited data

Results flagged for a closer look

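A lone library stood apart from the rest of its group for 2 of 15 combinations of gene and rotated group. The same rule was not applied to the other genes, so whether this count is high is not known. Nr3c1 was at 91.3 CPM in D-V replicate 1, with the next library at 77.7 and a gap of 0.747 of the range of the group. Hsd11b1 was at 42.0 CPM in D-V replicate 3, with the next library at 46.1 and a gap of 0.867 of the range. The other D-V libraries lay close together, at 46.1 to 46.7 CPM, and S-V replicate 4 was at 42.9 CPM. D-V replicate 3 also had the highest choroid plexus score (3.47), and the part of this in its value was not tested. Without D-V replicate 1 the log2 difference of Nr3c1 in D-V against D+V was −0.23 (adjusted p by edgeR 0.187), and without D-V replicate 3 that of Hsd11b1 was −0.17 (adjusted p by edgeR 0.486).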

How the results depend on the processing

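No alternative called any of the 5 genes in any of the 7 comparisons, under other scalings (RLE, upper quartile), filters, DESeq2, limma voom, a replicate block, covariates, a non-robust spread or with libraries left out. Where DESeq2 gave no adjusted p, as for Crhr1 in S-V and in the rotated mean, it could not call the gene. The non-robust spread and leaving out the 6 choroid-rich libraries were chosen after seeing the data. Signs changed for small differences and for some of the larger ones, such as Nr3c1 in D-V less D+V (−0.17) with GC and length trends removed, and the cause was not tested. Values are log2 differences against Control, or of the first group less the second. With limma voom the values that changed sign were Nr3c2 in S-V 0.083, Nr3c1 in D-V 0.0012, Nr3c2 in D-V 0.014, Crhr1 in D-V −0.031, Nr3c2 in rotated mean 0.085, Hsd11b1 in D+V less S-V −0.0032, Crhr1 in D+V less S-V −0.012. With the choroid plexus score as covariate the values that changed sign were Nr3c2 in S-V 0.037, Nr3c2 in rotated mean 0.016. With GC and length trends removed the values that changed sign were Nr3c1 in S-V −0.017, Nr3c1 in D+V −0.11, Nr3c2 in D+V −0.08, Crhr1 in D+V 0.15, Nr3c1 in rotated mean −0.073, Crhr1 in rotated mean 0.065, Nr3c1 in D-V less D+V 0.0091, Crhr1 in D-V less D+V −0.088, Nr3c1 in D+V less S-V −0.089, Nr3c2 in D+V less S-V −0.027. Without the 6 choroid-rich libraries the values that changed sign were Nr3c2 in S-V 0.098, Crhr1 in S-V 0.093, Crhr1 in D+V 0.14, Crhbp in D+V 0.087, Nr3c1 in D-V 0.035, Nr3c2 in D-V 0.0045, Crhr1 in D-V −0.024, Nr3c2 in rotated mean 0.039, Crhr1 in rotated mean 0.071, Crhr1 in D-V less S-V −0.12, Crhr1 in D-V less D+V −0.17, Nr3c1 in D+V less S-V −0.0012, Nr3c2 in D+V less S-V −0.083, Hsd11b1 in D+V less S-V −0.18. With upper-quartile scaling the values that changed sign were Nr3c2 in D+V −0.018, Crhr1 in D-V −0.0095. With only the groups compared in the fit the values that changed sign were Crhr1 in D+V 0.00016. With a library left out in turn, ranges that crossed 0 were Nr3c1 in S-V −0.011 to 0.20, Nr3c2 in S-V −0.12 to 0.18, Crhr1 in S-V −0.19 to 0.0035, Crhbp in S-V −0.058 to 0.26, Nr3c2 in D+V −0.072 to 0.23, Crhr1 in D+V −0.17 to 0.064, Crhbp in D+V −0.21 to 0.10, Nr3c1 in D-V −0.12 to 0.093, Nr3c2 in D-V −0.19 to 0.12, Crhr1 in D-V −0.063 to 0.067, Nr3c1 in rotated mean −0.024 to 0.18, Nr3c2 in rotated mean −0.13 to 0.18, Crhr1 in rotated mean −0.098 to 0.017, Crhbp in rotated mean −0.081 to 0.23, Crhr1 in D-V less D+V −0.053 to 0.18, Nr3c2 in D+V less S-V −0.021 to 0.10, Hsd11b1 in D+V less S-V −0.032 to 0.10, Crhr1 in D+V less S-V −0.065 to 0.19. Ranges that kept their sign but moved by over 1.5 times were Hsd11b1 in S-V 0.05 to 0.19, Nr3c1 in D+V 0.054 to 0.26, Hsd11b1 in D-V −0.062 to −0.018, Crhbp in D-V 0.028 to 0.34, Hsd11b1 in rotated mean 0.051 to 0.10, Nr3c1 in D-V less S-V −0.17 to −0.055, Nr3c2 in D-V less S-V −0.14 to −0.019, Hsd11b1 in D-V less S-V −0.23 to −0.095, Crhr1 in D-V less S-V 0.018 to 0.21, Crhbp in D-V less S-V 0.035 to 0.12, Nr3c2 in D-V less D+V −0.18 to −0.077, Crhbp in D-V less D+V 0.15 to 0.29, Nr3c1 in D+V less S-V 0.035 to 0.12, Crhbp in D+V less S-V −0.20 to −0.059. Without Control replicate 3, Nr3c2 was at 0.18 in both S-V and the rotated mean. Over all genes, calls in D+V against Control were 139, 88 with upper-quartile scaling, 731 by DESeq2, 1882 by limma voom, 344 with the choroid covariate, 0 with GC and length trends removed, 0 without the choroid-rich libraries, 0 with only the groups compared, and 0 to 1260 with a library left out. DESeq2 and limma voom called 216 and 318 genes in S-V, 238 and 381 in the rotated mean, 261 and 819 in D-V less D+V and 148 and 1942 in D+V less S-V, where edgeR called 0. DESeq2 called 3 in D-V and 4 in D-V less S-V, where limma voom called 0. Other changes from 0 were 1 to 33 genes. The fit with only the groups compared has no value for the rotated mean, which uses all groups. No pairing by replicate number was seen: 9 of 24 same-number pairs had an r over 0.1 (−0.452 to 0.34), and 3 libraries correlated best with their own number. These correlations also carry other differences between libraries, so a pairing is not excluded. With the replicate block 0 of the 5 genes were called, 35 of 35 values kept their direction, and calls over all genes in D+V were 4. Depth limits Crhr1 most, at 100 to 244 counts per library.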
